A study of Rattus norvegicus with 16 samples.

Results

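The CC chemokine ligands Ccl2, Ccl3, Ccl4, Ccl5, Ccl6, Ccl7, Ccl9, Ccl19, Ccl20 and Ccl22 were followed in rat hippocampus 24 h after brain injury. The measurements are those of all probes that carry one of these 10 symbols as gene name in the scanner files and are not controls. The array held 12 such probes among 30367 non-control probes, 2 each for Ccl6 and Ccl20 and 1 for each other gene. A gene is given by its probe with the highest mean signal. At least 1 probe passed the filter on dim signals (well above local background on every array of at least 1 group) for 9 of the 10 genes, and Ccl9 did not pass it. The array named 13361 genes in all by a current RefSeq symbol.

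The 16 arrays came from whole hippocampi of Sprague-Dawley rats. Naïve rats (n = 3) had neither surgery nor treatment, Sham rats (n = 2) were anesthetized and prepared but not injured, and TBI rats (n = 3) received severe fluid percussion injury, in which a pressure pulse of fluid deforms the exposed brain. The other injured rats received PMI-006 at 250 mg/kg (TBI+PMI, n = 3) or JM6 at 400 mg/kg (TBI+JM6, n = 3) by oral gavage, or estradiol at 33 ug/kg (TBI+E33, n = 2), for which the labels give a subcutaneous and the study's methods an intraperitoneal route. Doses are those of the study's methods, which state adult male rats. The question is which chemokine transcripts differ between injured and uninjured hippocampus, and between injured rats with and without a drug.

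Chemokines are small secreted proteins that guide leukocytes along a concentration gradient, and the CC class is named for neighbouring cysteines near its amino end. Ccl2 and Ccl7 attract monocytes through the receptor Ccr2. Ccl3 and Ccl5 act on Ccr1, and with Ccl4 they attract monocytes and T cells. Ccl6 and Ccl9 are rodent chemokines made mainly by myeloid cells. Ccl19, Ccl20 and Ccl22 are ligands of Ccr7, Ccr6 and Ccr4. In injured brain, activated microglia, astrocytes and infiltrating leukocytes are known sources of CC chemokines.

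Of the 10 genes, 7 have their probe on chromosome 10 of rn4, the build of the array's annotation. The Ccl2 probe lies at chr10:70257919-70257978 and the Ccl7 probe at chr10:70268674-70268733, 10.8 kb apart on the plus strand. The Ccl3 and Ccl4 probes are 15.7 kb apart. Whether a probe lies in coding or noncoding sequence was not examined, as no annotation of rn4 was used. The first 30 bases of the 60-base probes of these 2 neighbouring pairs show that members measured side by side are read by different sequence.
Ccl2: tttatttctctgtgaatcctggttcaacac
Ccl7: ttagacatgaaaacttcaactccaaagccc
Ccl3: gtgtttggtgacaattattctaggtagacg
Ccl4: tctcttacacctcccggaagattcatcgga

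Probes of different members shared runs of 4 to 11 bases over 64 pairs. The longest run was between Ccl6 and Ccl9, shown in capitals in bases 31 to 60 of each probe, because Ccl6 was bright on every array and Ccl9 on almost none.
Ccl6: tccaactttgtggGGACCCAGCTGttcttc
Ccl9: taatatgcctgtgaGGACCCAGCTGatctt

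The arrays lay on 4 slides of 4 arrays, scanned in 2 sessions. Naïve, Sham and TBI arrays made up the first session, with 16282 to 18245 probes well above background, and the drug groups the second, with 20259 to 24984. No model can therefore separate a drug from the session in a comparison with TBI, and the median of all probes was higher by 0.79 in TBI+PMI, by 0.99 in TBI+JM6 and by 1.08 in TBI+E33 than in TBI on the log2 scale. Arrays of 1 group correlated at 0.964 to 0.986 across probes. The levels below are log2 of a probe's signal over the 75th percentile of the array's probes above background, so that 0 stands for that percentile. They compare groups within a probe and not one gene with another.

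**Figure D1:**
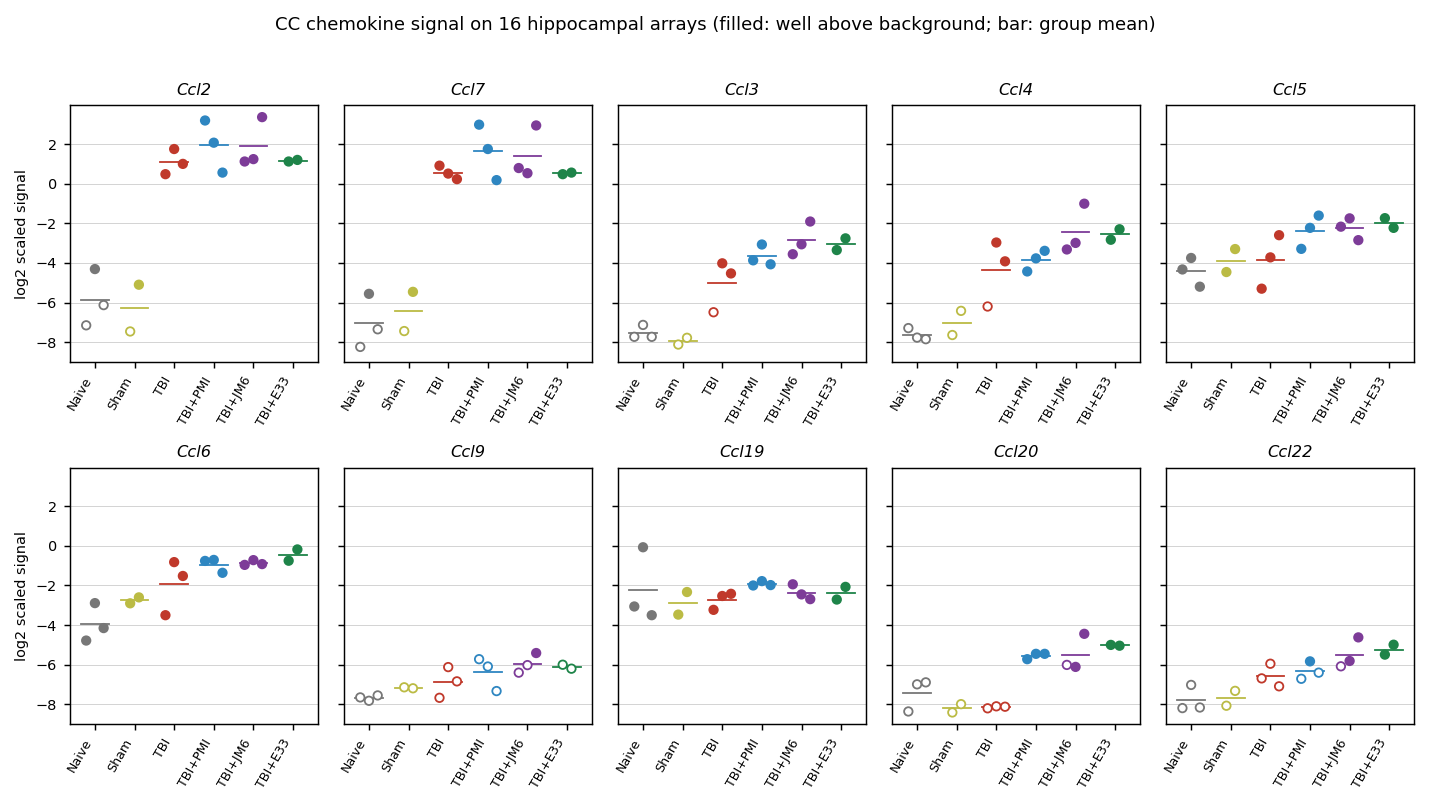
Log2 scaled signal (y axis) of each CC chemokine on the 16 arrays by group (x axis). Each point is 1 rat, filled where the probe was well above background, and bars are group means. Ccl2 and Ccl7 sit between 0.18 and 3.36 on every array of an injured rat and at -4.31 or below on every array of an uninjured rat.

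Injury was accompanied by higher levels of 3 of the 9 tested CC chemokines against Sham and of 4 against Naïve, and none was lower. Ccl2, Ccl7 and Ccl3 were higher in both comparisons and Ccl4 against Naïve. The Ccr2 ligands Ccl2 and Ccl7 had the largest differences of the members, 6.94 to 7.60 on the log2 scale. Among all probes, 2.93% were called higher in TBI vs. Sham and 2.98% in TBI vs. Naïve, at a Benjamini-Hochberg adjusted p under 0.05 from limma over all tested probes. Of all calls, 31.1% were higher in TBI vs. Sham and 63.3% in TBI vs. Naïve, and 46.8% and 53.9% under quantile normalization. Over the 9 tested members the median log2 difference was 1.12 against Sham and 1.99 against Naïve, and -0.03 and 0.04 over all probes. These 9 include Ccl20 and Ccl22, below background on all arrays of these groups. Over the 7 members above background on an array of either group, with dim groups at their bound, it was 1.30 and 1.68. Ccl3 and Ccl4 are among these 7 through their TBI arrays alone, and no such median was taken over all probes.

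Ccl2, the main monocyte attractant of the family, had levels of -7.15, -4.31 and -6.13 in the Naïve rats, -7.46 and -5.10 in the Sham rats and 0.48, 1.75 and 1.0 in the TBI rats. Only 1 Naïve and 1 Sham array were above background, the second of each group, and the injured rats did not overlap with them. The TBI mean was 1.08 ± 0.64 (SD, n = 3), and the Sham mean was -6.28 ± 1.67 (SD, n = 2). The difference to Sham was 7.36 ± 0.98 (SE) on the log2 scale, with an adjusted p of 0.00507 from limma. Against Naïve it was 6.94 ± 0.88 (SE), with an adjusted p of 0.00272 from limma. The size of both rests on the dim signals of 1 of 2 Sham and 2 of 3 Naïve arrays.

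Ccl7, a second Ccr2 ligand encoded next to Ccl2, likewise separated the injured from the uninjured rats. Its levels were -8.24, -5.56 and -7.35 in Naïve, -7.44 and -5.46 in Sham and 0.91, 0.51 and 0.23 in TBI rats. The TBI arrays lay close to each other, and as for Ccl2, only the second Naïve and the second Sham array were above background among the uninjured rats. The difference was 7.0 ± 0.94 (SE, log2) to Sham, with an adjusted p of 0.00507 from limma. To Naïve it was 7.60 ± 0.84 (SE), with an adjusted p of 0.00177 from limma. Without Sham 1 the differences to Sham were 6.17 for Ccl2 and 6.01 for Ccl7, without Sham 2 they were 8.54 and 7.99, and both genes remained called. Against Naïve, leaving out 1 rat at a time gave 6.30 to 7.72 for Ccl2 and 7.0 to 8.34 for Ccl7.

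Ccl3, which binds Ccr1, was not above background on any uninjured array, with levels of -7.73, -7.13 and -7.73 in Naïve and -8.12 and -7.78 in Sham. In TBI it was -6.49, -4.02 and -4.53, and TBI 1 was also below background. The groups did not overlap. The signal in TBI was at least 2.46-fold that of Sham, a bound taken against the dimmest probes above background on the Sham arrays, with a measured log2 difference of 2.93 ± 0.63 (SE) and an adjusted p of 0.0173 from limma. Against Naïve it was at least 2.04-fold, with a measured difference of 2.52 ± 0.56 (SE) and an adjusted p of 0.0269 from limma. The call against Sham was lost without Sham 1, Sham 2, TBI 2 or TBI 3 (adjusted p from limma 0.0958, 0.0701, 0.0582 and 0.0655), and without TBI 1 the difference was 3.67. The call against Naïve was lost without Naïve 1, Naïve 3, TBI 2 or TBI 3 (adjusted p from limma 0.0942, 0.0693, 0.0967 and 0.103).

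Ccl4, a close relative and neighbour of Ccl3, had levels of -7.29, -7.77 and -7.85 in Naïve, -7.64 and -6.42 in Sham and -6.20, -2.97 and -3.92 in TBI. None of the 5 uninjured arrays and 2 of the 3 TBI arrays were above background, and TBI 1 was again the lowest of its group. The measured difference to Naïve was 3.27 ± 0.74 (SE, log2), at least 3.21-fold, with an adjusted p of 0.0279 from limma. To Sham it was 2.67 ± 0.83 (SE), at least 3.76-fold, with an adjusted p of 0.0612 from limma, and without TBI 1 it was 3.59 with an adjusted p of 0.00473. The call against Naïve held without TBI 1 and was lost without any other single rat of these groups (adjusted p from limma 0.0683 to 0.102).

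**Figure D2:**
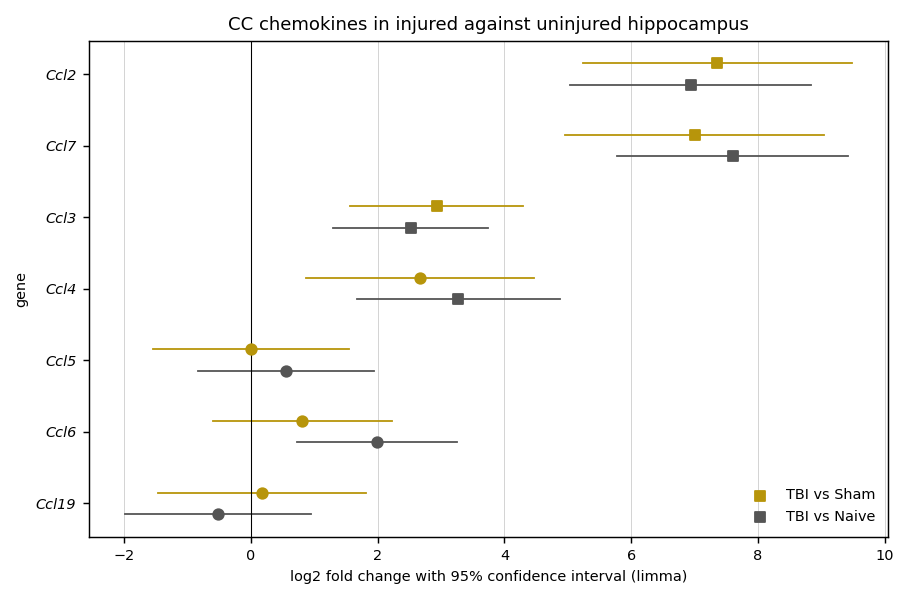
Log2 fold change (x axis) of the 7 CC chemokines above background on an array of these groups (y axis) in TBI vs. Sham and TBI vs. Naïve, with 95% confidence intervals from limma. Squares passed the adjusted p threshold, and circles did not. Ccl2 and Ccl7 lie between 6.94 and 7.60, and the intervals of Ccl5 and Ccl19 include 0 in both comparisons.

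The other members did not pass the test after injury. Ccl5, a ligand of Ccr1 made by T cells among others, was above background on all 16 arrays. Its levels were -4.33, -3.75 and -5.20 in Naïve, -4.46 and -3.30 in Sham and -5.30, -3.72 and -2.60 in TBI rats. The injured rats included both the lowest and the highest value of these groups, and for TBI vs. Sham the 95% confidence interval of the log2 difference ran from -1.55 to 1.55. Ccl19, a Ccr7 ligand, was likewise above background throughout and was at -3.47 and -2.33 in Sham and -3.23, -2.53 and -2.42 in TBI. Naïve 2 stood apart for this gene at -0.07, while the other Naïve arrays were at -3.06 and -3.50. The difference of TBI was 0.18 ± 0.76 (SE, log2) to Sham and -0.52 ± 0.68 (SE) to Naïve, with adjusted p of 0.908 and 0.735 from limma.

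Ccl6, a chemokine of myeloid cells, was at -4.78, -2.89 and -4.15 in Naïve, -2.90 and -2.60 in Sham and -3.50, -0.82 and -1.52 in TBI. TBI 1 fell among the uninjured rats. The difference to Naïve was 1.99 ± 0.58 (SE, log2) with an adjusted p of 0.0706 from limma by this probe. It was 2.18 ± 0.51 (SE) with an adjusted p of 0.032 by the other probe, so that the 2 probes fell on different sides of the threshold. Against Sham the first probe gave 0.81 ± 0.65 (SE), with an adjusted p of 0.463 from limma.

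Ccl9, Ccl20 and Ccl22 were below background on all Naïve, Sham and TBI arrays. No fold change is given for them, since both groups of each comparison had signals below background. The Ccl22 signals, below background on all 8 arrays, were nonetheless called higher in TBI vs. Sham in the authors' matrix (log2 difference 1.2, adjusted p = 0.0404 from limma). In TBI vs. Naïve they were called in the matrix and under quantile normalization, at 1.16 and 1.74, with adjusted p of 0.0365 and 0.034. In Sham vs. Naïve no member was called, while 8.08% of all probes were (81.2% of these higher in Sham, and 57.1% under quantile normalization), and no member had an unadjusted p under 0.05 from limma by its brightest probe. The largest difference there by these probes was that of Ccl6, at 1.19 ± 0.65 (SE, log2) with an adjusted p of 0.311 from limma. The second Ccl6 probe was at 1.47 ± 0.57 (SE), with an unadjusted p of 0.0238 and an adjusted p of 0.143 from limma.

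The slide touches these results, since the Sham arrays shared a slide with Naïve 1 and 2 and the TBI arrays a slide with Naïve 3. Within the latter slide, TBI exceeded Naïve 3 by 7.21 for Ccl2, 7.90 for Ccl7, 2.72 for Ccl3 and 3.48 for Ccl4 on the log2 scale. With the slide as a fixed block, the differences to Sham were 7.76 ± 1.72 (SE) for Ccl2 and 7.45 ± 1.67 (SE) for Ccl7 with adjusted p of 0.158 and 0.161 from limma, and no member was called. Against Naïve, Ccl2 and Ccl7 were called under that block, with adjusted p of 0.0306 and 0.0175.

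Of 8 tested monocyte and macrophage markers, 4 were called higher in TBI vs. Sham and 3 in TBI vs. Naïve, beside 2.93% and 2.98% of all probes. Among them were Cd14, the lipopolysaccharide coreceptor, by 3.09 (log2, against Sham) and the scavenger receptor Msr1, at least 5.31-fold, and microglia also express Cd14, Msr1 and Fcgr3a. The summed level of the 6 markers with a value on all 16 arrays was 0.522 to 0.655 in Naïve, 0.463 to 0.777 in Sham and 1.53 to 4.16 in TBI rats, in multiples of the 75th percentile. Lyz2 and Msr1, each without a value on 1 array, are not in these sums. Of 7 neutrophil markers on the array 3 were tested, and 2 of them, S100a8 and S100a9, calcium-binding proteins abundant in neutrophils, were higher in both comparisons. The summed level of the 6 neutrophil markers with a value on all arrays was 0.0834 to 0.102 in Naïve, 0.156 to 1.5 in Sham and 0.22 to 1.98 in TBI. The high Sham sum came from Elane, a granule protease that was above background on 1 of 16 arrays, at 0.45 (log2) in that Sham rat. Over the 2 tested markers with a value on all arrays the sums were 0.107 to 0.143 in Sham and 0.203 to 1.97 in TBI, and the granule proteins Mpo and Mmp8 were above background on no array. The part of these cells in the chemokine levels was not tested, and in tissue RNA more cells of a type cannot be told apart from more RNA per cell.

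Of the brain markers, 7 of 8 neuronal ones were above background on all 16 arrays and all 6 astrocyte markers in each group. In TBI vs. Sham, 3 of 8 neuronal markers were lower, 2 of 10 microglial markers were higher and 2 lower, 1 of 8 tested lymphocyte markers was higher, 1 of 6 endothelial markers was lower, and no astrocyte marker was called. Of all 22799 probes tested there, 1479 were called lower and 667 higher. Choroid plexus, a tissue next to the hippocampus, was read unevenly. The summed level of its 7 markers, led by Ttr, ran from 2.35 to 76.8 among Naïve rats and from 4.91 to 122 among Sham rats. Among TBI rats it ran from 0.199 to 3.54, and among treated rats from 0.306 to 152 with PMI-006, 0.447 to 1.83 with JM6 and 0.476 to 1.33 with estradiol. The median log2 difference of the 5 tested markers was -3.23 in TBI vs. Sham and 1.97 in Sham vs. Naïve, with none called, and its part in the chemokine levels was not tested.

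Most receptors of these ligands were dim in uninjured hippocampus, and of 13 CC receptors read here 9 were above background on no Naïve array and 10 on no Sham array. Of the 6 tested, none was called by limma in TBI vs. Sham or in TBI vs. Naïve, with a median log2 difference of 0.11 and 0.38, and 1, Ccr1, had an unadjusted p under 0.05 in each. Ccr1, a receptor of Ccl3 and Ccl5, was below background on all 5 uninjured arrays and at -7.88, -4.43 and -5.21 in TBI. TBI 1 was among the uninjured rats here too, and the difference to Sham was 2.24 ± 0.82 (SE) with an adjusted p of 0.102 from limma. Ccr2, the receptor of Ccl2 and Ccl7, was above background on 1 of 3 TBI arrays and on no uninjured array, with levels of -8.04, -6.84 and -5.59 in TBI and a difference to Sham of 0.70 ± 0.84 (SE).

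Of 6 tested other CC chemokines none was called after injury. Ccl12, a further Ccr2 ligand of rodents, was at -8.19, -1.69 and -3.25 in TBI, with TBI 1 below background, and at -7.61 and -6.43 in Sham. The measured difference to Sham was 2.65 ± 1.32 (SE, log2), with an adjusted p of 0.228 from limma. Among 12 tested CXC and CX3C ligands, Cxcl1, a neutrophil attractant, was the 1 gene called in TBI vs. Sham, at -3.79, -2.40 and -3.71 in TBI and -7.93 and -8.17 in Sham. It was at least 8.10-fold higher, and its measured difference had an adjusted p of 0.00737 from limma. In TBI vs. Naïve, 3 of these 12 ligands were called higher. Of 9 tested NF-kB inducers and targets, a pathway known to switch on chemokine genes, 1 was higher in TBI vs. Sham and 3 in TBI vs. Naïve. Of all probes, 2.93% and 2.98% were called higher in these comparisons.

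**Figure D3:**
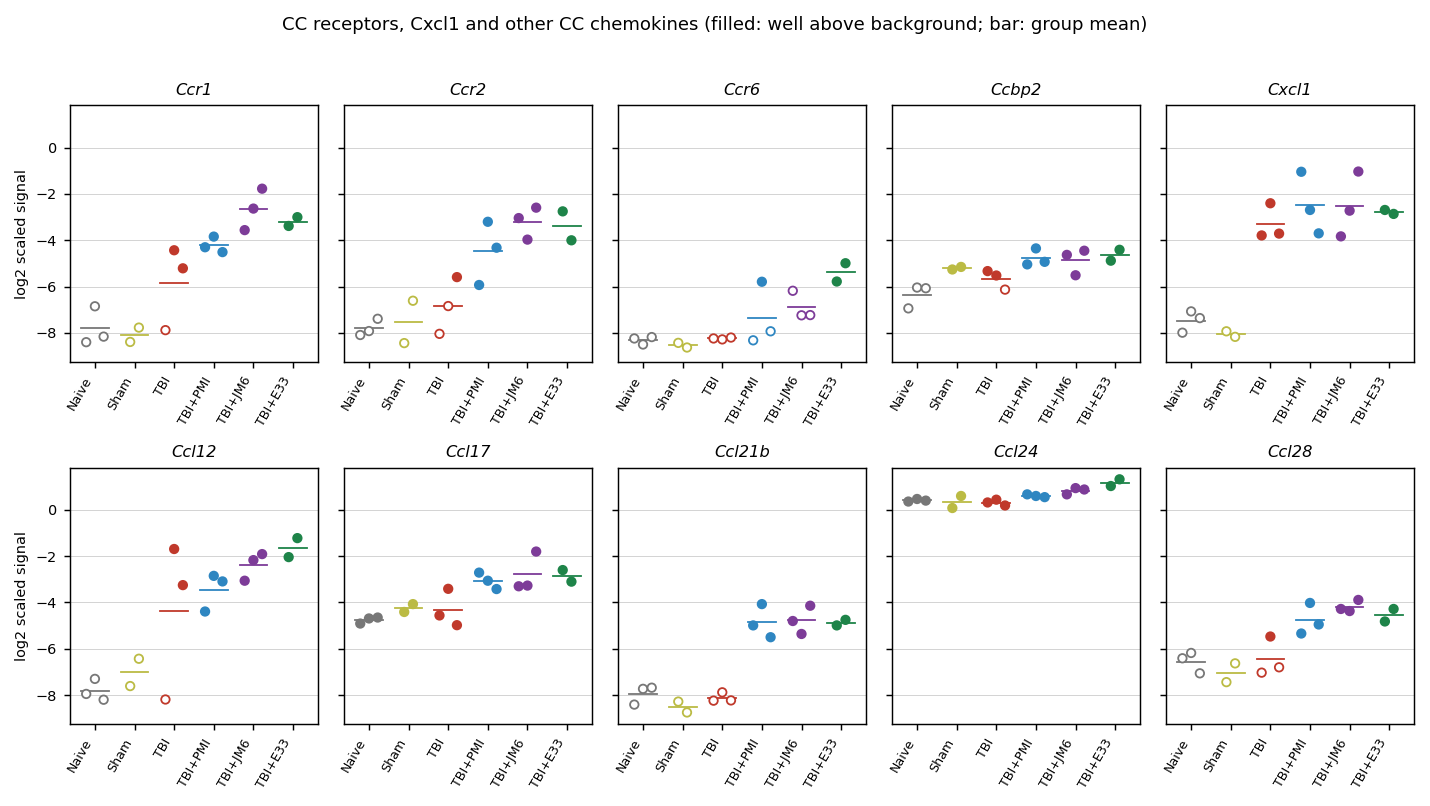
Log2 scaled signal (y axis) of 4 CC receptors, Cxcl1 and 5 other CC chemokines on the 16 arrays by group (x axis). Each point is 1 rat, filled where well above background, and bars are group means. TBI 1 is below background for Ccr1 at -7.88 and Ccl12 at -8.19, yet above it for Cxcl1 at -3.79.

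Members differed in how the injured rats were ordered. TBI 1 was the lowest of its group for Ccl2, Ccl3, Ccl4, Ccl5, Ccl6 and Ccl19 and the highest for Ccl7. The patterns of Ccl2 and Ccl7 nonetheless correlated at 0.99 over the 16 arrays, and at 0.99 in each session of 8 arrays. The other genes most like Ccl2 among 12715 ranked probes were Hspb1, Casp4, Trim47 and Cxcl1, at 0.98 to 0.99 over all arrays and at 0.68 to 0.93 within the second session, where Casp4 was the lowest. The genes most like Ccl3 were Il1b, Fcgr2b, Il1rn, Csrp3 and Tnfaip2, each at 0.99 over all arrays and at 0.81 to 0.96 within the second session. These are descriptions over arrays that share sessions and scaling, and the contrast of injured and uninjured rats lies in all of them. In the second session alone, where all rats were injured, Ccl5 ran against Ccl2 (r = -0.91) and Ccl7 (r = -0.93) over 8 arrays. These were the lowest correlations of any 2 tested members there, and not independent ones, as Ccl2 and Ccl7 rose together. In the first session the same pairs were at 0.30 and 0.25.

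Spots of 1 array gave the technical spread of 2 members. Ccl2 and Ccl3 were printed on 10 spots each. The SD over the spots of an array, on the log2 scale, was 0.06 to 0.29 for Ccl2 over the 13 arrays above background and 0.12 to 0.46 for Ccl3 over 10 arrays. The SD between the TBI rats was 0.64 for Ccl2 and 1.30 for Ccl3. For Ccl3 this includes TBI 1, which was below background and not among the 10 arrays. Its SD over spots was 0.67, so the 2 spreads of Ccl3 rest on different arrays.

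The drug groups were compared with TBI to ask whether treated injured rats differed. Under this scaling no member was called lower, and 1 of 9 tested members was called higher in TBI+PMI, 5 in TBI+JM6 and 4 in TBI+E33, whereas 56.7%, 69.9% and 70.2% of all probes were called higher in the same comparisons. The members' shares were below those of all probes. The median measured log2 difference of the 9 members was 1.01, 1.08 and 1.48, against 0.79, 0.99 and 1.08 for all probes. With dim groups at their bound the members' median was 0.86, 0.87 and 0.95. No such bounded median was taken over all probes, so these values are not set against them. Drug and scanning session cannot be told apart in these values. Ccl3, Ccl4, Ccl20 and Ccl22 passed the filter on dim signals only through drug groups, so their calls there are not independent of it.

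Ccl2 and Ccl7, the genes with the largest injury difference, were not called in any drug group. Ccl2 was at 3.19, 2.07 and 0.56 in TBI+PMI, 1.12, 1.24 and 3.36 in TBI+JM6 and 1.12 and 1.2 in TBI+E33 rats. All of these overlapped with the TBI range or lay above it. The differences to TBI were 0.86 ± 0.88, 0.83 ± 0.88 and 0.08 ± 0.98 (SE, log2), with adjusted p of 0.406, 0.401 and 0.941 from limma, and the last had a 95% confidence interval from -2.04 to 2.20. Ccl7 was at 2.98, 1.75 and 0.18 in TBI+PMI, 0.79, 0.53 and 2.94 in TBI+JM6 and 0.48 and 0.56 in TBI+E33 rats. For both genes TBI+PMI 1 and TBI+JM6 3 were the highest of their groups, and without these rats the differences to TBI were 0.24 and 0.10 for Ccl2 and 0.42 and 0.11 for Ccl7. The Ccl7 differences to TBI were 1.09 ± 0.84, 0.87 ± 0.84 and -0.03 ± 0.94 (SE), with adjusted p of 0.279, 0.361 and 0.981 from limma. With 1 rat left out at a time, Ccl2 was at 0.24 to 1.55 in TBI+PMI and 0.10 to 1.22 in TBI+JM6, and Ccl7 at 0.42 to 1.81 and 0.11 to 1.32. Relative to the median of all probes, Ccl2 in TBI+E33 was at -0.99 and Ccl7 at -1.10.

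Ccl3 was at -3.87, -3.07 and -4.07 in TBI+PMI, -3.56, -3.06 and -1.91 in TBI+JM6 and -3.35 and -2.76 in TBI+E33 rats. All 8 arrays were above background and those of TBI+JM6 and TBI+E33 were above all TBI arrays. The difference was 2.17 ± 0.56 (SE, log2) in TBI+JM6, with an adjusted p of 0.00451 from limma, and 1.96 ± 0.63 (SE) in TBI+E33, with an adjusted p of 0.0148. Without TBI 1 these were 1.44 and 1.22, and without TBI+E33 2 the call in TBI+E33 was lost (adjusted p = 0.107 from limma). In TBI+PMI the difference was 1.34 ± 0.56 (SE), with an adjusted p of 0.0575 from limma.

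Ccl4 was at -4.43, -3.77 and -3.39 in TBI+PMI, -3.32, -2.99 and -1.01 in TBI+JM6 and -2.83 and -2.30 in TBI+E33 rats. It was called in TBI+JM6 alone, at 1.92 ± 0.74 (SE, log2) with an adjusted p of 0.0341 from limma. Leaving out TBI 1 or TBI+JM6 3 ended this call, at 1.0 and 1.21. In TBI+E33 Ccl4 differed by 1.80 ± 0.83 (SE), with an adjusted p of 0.0677 from limma.

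Ccl5 was at -3.29, -2.23 and -1.61 in TBI+PMI, -2.17, -1.75 and -2.85 in TBI+JM6 and -1.74 and -2.23 in TBI+E33 rats. The TBI rats, at -5.30 to -2.60, overlapped with TBI+PMI and TBI+JM6 and lay below TBI+E33. Ccl5 was called at 1.62 ± 0.64 (SE) in TBI+JM6 and 1.88 ± 0.72 (SE) in TBI+E33, with adjusted p of 0.0381 and 0.0321 from limma, and at 0.90 and 1.17 without TBI 1 it was called in neither. The call in TBI+JM6 was also lost without TBI 2, TBI+JM6 1 or TBI+JM6 2 (adjusted p from limma 0.0579, 0.0774 and 0.115), and that in TBI+E33 without either TBI+E33 rat (0.142 and 0.0763).

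Ccl20, a ligand of Ccr6 that attracts dendritic cells and T cells, was below background in all 8 rats of the first session and above it in 7 of 8 rats of the second. It was at -8.20, -8.10 and -8.12 in TBI, -5.72, -5.45 and -5.45 in TBI+PMI, -6.01, -6.11 and -4.44 in TBI+JM6 and -5.00 and -5.04 in TBI+E33. No treated rat overlapped with a TBI rat. The level was at least 1.35-fold, 1.36-fold and 1.93-fold that of TBI. On the log2 scale these bounds were 0.43, 0.45 and 0.95. As lower limits they cannot be ranked against the median of all probes, 0.79, 0.99 and 1.08, which was taken without bounds. The measured differences, which rest on TBI signals below background, were 2.60, 2.62 and 3.12 (log2), or 1.81, 1.63 and 2.04 relative to that median. The adjusted p of these differences were 0.00034, 0.000203 and 0.00015 from limma. The second Ccl20 probe, shifted by 7 bases, was above background on 1 of 3 TBI+PMI arrays, 2 of 3 TBI+JM6 arrays and both TBI+E33 arrays, and it was not called in TBI+PMI (adjusted p = 0.176 from limma).

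Ccl22, a ligand of Ccr4, was at -6.69, -5.95 and -7.09 in TBI, -6.71, -5.83 and -6.40 in TBI+PMI, -6.08, -5.81 and -4.62 in TBI+JM6 and -5.49 and -4.99 in TBI+E33. Of the 8 drug arrays 5 were above background, and none of the TBI arrays was. Ccl22 entered the test only through TBI+E33, so its call there is not independent of the filter. Its level was at least 1.36-fold that of TBI in TBI+JM6 and at least 1.64-fold in TBI+E33. The measured differences were 1.07 and 1.33 (log2), with adjusted p of 0.0464 and 0.0296 from limma. Relative to the median of all probes these differences were 0.08 and 0.26. In TBI+JM6 the call was lost without TBI 1, TBI 3, TBI+JM6 2 or TBI+JM6 3 (adjusted p from limma 0.105, 0.163, 0.0525 and 0.221). In TBI+E33 it was lost without TBI 1, TBI 3 or either TBI+E33 rat (adjusted p 0.0655, 0.0973, 0.0524 and 0.173).

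Ccl6 was at -0.76, -0.71 and -1.36 in TBI+PMI, -0.96, -0.72 and -0.92 in TBI+JM6 and -0.75 and -0.18 in TBI+E33 rats, and the treated rats were close to each other, overlapped with TBI 2 and lay above TBI 1 and TBI 3. Ccl6 and Ccl19 were not called in any drug group by their brightest probe, with differences to TBI of 1.01 to 1.48 for Ccl6 and 0.34 to 0.80 for Ccl19. The second Ccl6 probe was called in TBI+JM6 at 1.25 ± 0.51 (SE, log2) and in TBI+E33 at 1.61 ± 0.57 (SE), with adjusted p of 0.0441 and 0.0238 from limma. Ccl9 was above background on 1 of 16 arrays, that of TBI+JM6 3, at -5.41.

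The calls of the drug groups depended on the scaling between arrays. Quantile normalization forces the arrays to 1 common distribution of values. Under it the median of all probes moved to -0.01 in TBI+PMI vs. TBI and no member was called higher in any drug group. Higher calls made up 52%, 51% and 51% of all calls in TBI+PMI, TBI+JM6 and TBI+E33 there, against 99.9%, 99.8% and 99.9% under the 75th percentile. Ccl20 kept a positive difference of 1.45, 1.29 and 1.39 (log2), with adjusted p of 0.0853, 0.104 and 0.131 from limma. With normexp background correction Ccl20 was at -0.22, 0.70 and 0.14, where the median of all probes was 0.24, 0.82 and 0.50, and in the authors' matrix it was at 0.72, 0.44 and 0.79, and neither setting called it. Ccl22 turned to -1.34, -0.94 and -1.01 under quantile normalization, and was called lower there in TBI+PMI with an adjusted p of 0.0411 from limma. In TBI vs. Sham, Ccl2, Ccl7 and Ccl3 were called under the 75th percentile and under quantile normalization, at 6.61, 6.26 and 2.69 under the latter. With normexp only Ccl2 was called there.

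**Figure D4:**
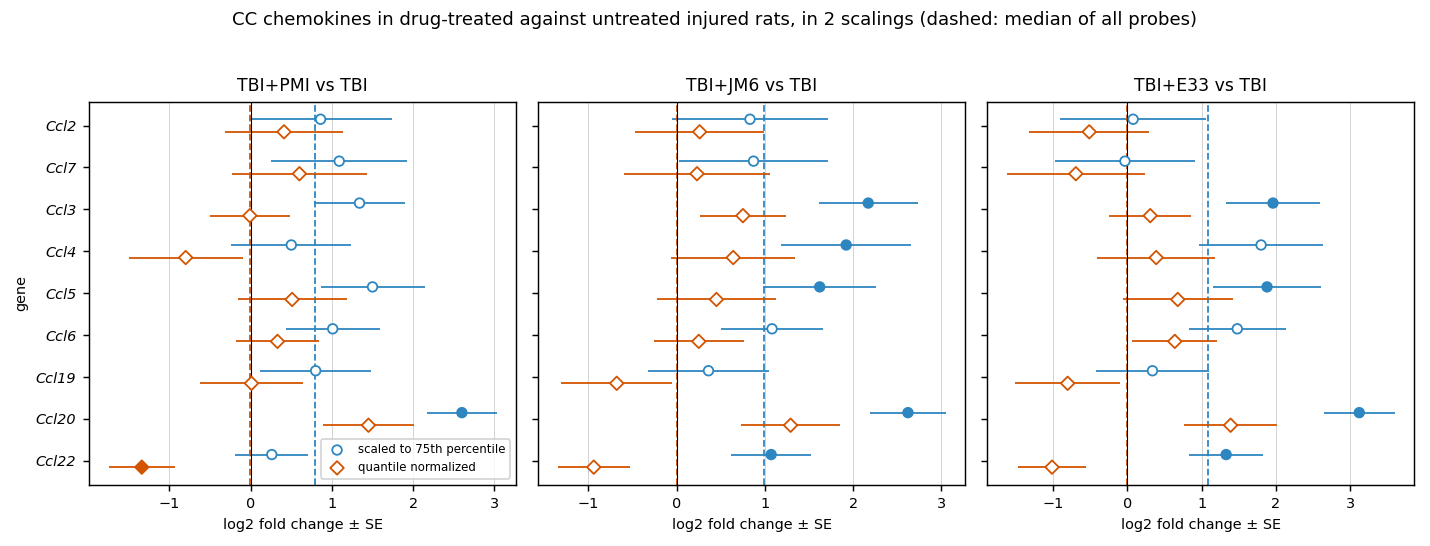
Log2 fold change with SE (x axis) of the 9 tested CC chemokines (y axis) in each drug group vs. TBI, scaled to the 75th percentile (circles) or quantile normalized (diamonds). Filled symbols passed the adjusted p threshold and dashed lines are medians of all probes. The TBI arrays were below background for Ccl20, plotted at 2.60 to 3.12 and 1.29 to 1.45, and for Ccl22, which changes sign.

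The promoter windows of Ccl7 and Ccl20 are shown because Ccl7 was called after injury and Ccl20 was called in each drug group under the 75th percentile, below background in TBI and above it in 7 of 8 treated rats. RefSeq windows of build GRCr8, from 250 bases before to 50 after each start, were matched by symbol for 6 of the 10 members, Ccl6, Ccl7, Ccl9, Ccl19, Ccl20 and Ccl22. The 250 bases before the start are printed, on the plus strand at chr10:67513845-67514094 for Ccl7 and at chr9:91836909-91837158 for Ccl20. Capitals mark TGANTCA, the letters of the AP-1 consensus with any central base, and TATAAA in Ccl7, and an NF-kB consensus match in Ccl20.
Ccl7: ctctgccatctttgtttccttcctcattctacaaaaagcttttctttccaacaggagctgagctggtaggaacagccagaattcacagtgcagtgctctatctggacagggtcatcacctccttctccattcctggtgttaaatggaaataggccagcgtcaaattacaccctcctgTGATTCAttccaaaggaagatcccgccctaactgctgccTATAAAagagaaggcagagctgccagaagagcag
Ccl20: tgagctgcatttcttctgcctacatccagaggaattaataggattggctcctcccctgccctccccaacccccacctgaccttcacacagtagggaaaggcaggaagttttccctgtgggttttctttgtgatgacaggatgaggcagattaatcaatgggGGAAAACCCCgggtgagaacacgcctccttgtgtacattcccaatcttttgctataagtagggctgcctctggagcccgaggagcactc

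On both strands, the NF-kB consensus was found in 2 of the 6 windows, those of Ccl20 and Ccl9, and in 4.18% of 33469 RefSeq windows of this length. TGANTCA, which reads the same on both strands, was in the Ccl7 window and in 7.33% of windows. TATAAA was in those of Ccl6, Ccl7 and Ccl9 and in 14.2% of windows. These are matches of letters and not sites shown to be bound.

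Between drug groups, which shared a session, no member was called, and none had an unadjusted p under 0.05 from limma by its brightest probe. Over all probes 0.0131% were called in TBI+JM6 vs. TBI+PMI, 0.11% in TBI+E33 vs. TBI+PMI and 0.0175% in TBI+JM6 vs. TBI+E33. By brightest probes the largest member difference was that of Ccl4 in TBI+JM6 vs. TBI+PMI, at 1.42 ± 0.74 (SE, log2). Its 95% confidence interval ran from -0.18 to 3.03, with an adjusted p of 0.628 from limma. The second Ccl20 probe differed there by 1.56 ± 0.69 (SE), with an unadjusted p of 0.0421 and an adjusted p of 0.543 from limma. By brightest probes the largest in TBI+E33 vs. TBI+PMI was Ccl4 at 1.30 ± 0.83 (SE), and in TBI+JM6 vs. TBI+E33 Ccl7 at 0.90 ± 0.94 (SE). Intervals of this width leave differences of several fold undetected.

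Receptors and other ligands in the drug groups had to be read against the same shift. Ccr1, Ccr2, Ccr6, Ccl21b and Ccl28 passed the filter on dim signals only through drug groups, so their calls there are not independent of it. Of 6 tested CC receptors, 2 were called higher in TBI+PMI, 4 in TBI+JM6 and 4 in TBI+E33 vs. TBI, beside 56.7%, 69.9% and 70.2% of all probes. Ccr2 was at -5.93, -3.20 and -4.32 in TBI+PMI, -3.04, -3.97 and -2.59 in TBI+JM6 and -2.75 and -4.00 in TBI+E33 rats, above background in each. Its difference to TBI was 2.34 ± 0.75, 3.62 ± 0.75 and 3.45 ± 0.84 (SE, log2), with adjusted p of 0.0179, 0.00105 and 0.00308 from limma. Under quantile normalization it was 0.91, 2.12 and 1.68, with adjusted p of 0.505, 0.102 and 0.258.

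Ccr1 was called in TBI+JM6 at 3.19 ± 0.73 (SE, log2) and in TBI+E33 at 2.65 ± 0.82 (SE), with adjusted p of 0.00212 and 0.0121 from limma, and under quantile normalization it was at 1.71 and 0.88, with adjusted p of 0.111 and 0.487. Ccr6, the Ccl20 receptor, was above background in both TBI+E33 rats, at -5.78 and -4.99, and in no TBI rat. It was at least 1.5-fold higher there, and its measured difference had an adjusted p of 0.000959 from limma. Ccr6 entered the test only through TBI+E33. It was called in TBI+JM6 too (adjusted p = 0.0322), where it was above background on no array. Ccbp2, a decoy receptor that clears CC chemokines, was called higher in each drug group, at 0.89, 0.80 and 1.02. Under quantile normalization it turned to -0.69, -1.06 and -1.15, the last 2 called lower with adjusted p of 0.0164 and 0.0236 from limma.

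Of 6 tested other CC chemokines, 3 were called higher in TBI+PMI and 4 each in TBI+JM6 and TBI+E33, beside the same 56.7%, 69.9% and 70.2% of all probes. Ccl21b, a Ccr7 ligand, was below background in all rats of the first session and above it in all 8 of the second, from -5.50 to -4.07. It was at least 2.16-fold, 2.29-fold and 2.14-fold higher than in TBI, and its quantile normalized difference was 2.25, 2.08 and 1.60, with adjusted p of 0.0102, 0.0102 and 0.0584 from limma. Ccl28, an epithelial chemokine, differed by 1.66, 2.25 and 1.88 and Ccl17, a Ccr4 ligand, by 1.25, 1.53 and 1.46. Under quantile normalization these were -0.08, 0.34 and -0.43 for Ccl28 and 0.15, 0.26 and 0.02 for Ccl17. Ccl24, an eosinophil attractant, was called in TBI+JM6 at 0.51 and in TBI+E33 at 0.86, and was at -0.12 and 0.22 under quantile normalization.

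Cell markers in the drug groups were read on the same scale. The summed level of the 6 monocyte and macrophage markers was 2.78 to 7.21 in drug-treated rats against 1.53 to 4.16 in TBI rats, and that of 9 lymphocyte markers was 0.647 to 1.1 against 0.186 to 0.335. Beside these, the median of all probes was higher by 0.79 to 1.08 (log2). Of 8 neuronal markers 7, 6 and 5 and of 6 astrocyte markers 1, 2 and 4 were called higher in TBI+PMI, TBI+JM6 and TBI+E33 vs. TBI. In the same order, 3, 5 and 4 of 8 monocyte and macrophage markers and 2, 5 and 4 of 10 microglial markers were called higher. So were 0, 1 and 1 of 3 tested neutrophil markers and 5, 7 and 7 of 8 tested lymphocyte markers. In the same comparisons 56.7%, 69.9% and 70.2% of all probes were called higher. The number of probes above background was higher in every drug-treated rat too. The part of these cells and of the session in the chemokine levels was not tested.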

How the data were processed

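Per the labels, total RNA of whole hippocampus was amplified with 1 of 2 kits, not stated per rat, and hybridized to single-colour Agilent arrays. The deposited spot intensity was background subtracted by Agilent Feature Extraction 9.5.3.1, per the file headers. The authors' deposited matrix, a ratio to the array's 75th percentile, was an alternative. Spots were averaged by probe, intensities were divided by the array's 75th percentile of probes above background and log2 was taken. A probe was above background where at least 50% of its usable spots were. The 22827 probes that at least 1 group had above background throughout were tested with limma 3.58.1 in R 4.3.3, in 1 fit of all 16 arrays (10 residual degrees of freedom), which was tested on simulated data. Where a whole group was dim, the fold is a bound set by the lowest signals above background. Arrays of the brighter group that were themselves below background entered this bound at their measured signal. Figures used Python 3.11.15 and matplotlib 3.10.9. The members, the lists and the rule for named genes (all members, called genes of the CC lists, up to 4 called CXC genes in TBI vs. Sham and the 5 genes most like Ccl2 and Ccl3) were chosen with earlier results of these data known. Alternatives changed the background correction, scaling, filter, test, samples and blocks. Array number limits the precision. Other rats of the study were not analysed here. Per-sample columns left unused numbered 0. 1 receptor was left out of the receptor list and is not reported here.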

Additional observations from a re-analysis of the deposited data

How the results depend on the processing

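Of 172 recomputed counts of called members, 124 stayed within 1.5 times the count reported. Direction and call were kept in 535 of 708 gene differences. The counts include comparisons with no called member, where 0 mostly stayed 0, so the total overstates how steady the others were. With 1 rat left out, the count moved in 4 of 6 fits for TBI vs. Naïve. It moved in 3 of 6 fits each for TBI+JM6 and TBI+PMI vs. TBI. Ccl2 and Ccl7 in both injury comparisons and Ccl20 in the drug groups kept their call without any single rat. In TBI vs. Sham, 3 members were called. This count was 1 with normexp background correction (Ccl2) and 0 with each of these: probes above background on all arrays alone (which removes Ccl2, Ccl3 and Ccl7), the methods' t-test after Benjamini-Hochberg adjustment, limma on these groups alone, and the slide as a fixed block. In TBI vs. Naïve, 4 were called, and the same settings gave 2, 1, 0, 1 and 2. In TBI+JM6 vs. TBI (5 called), normexp and quantile normalization gave 0, either other 75th percentile 2, the authors' matrix 1 (Ccl22, lower, adjusted p = 0.0265 from limma), probes above background throughout 1, either form of the methods' t-test 1 and the groups alone 2. In TBI+E33 vs. TBI (4 called), these gave 0, 0, 1, 0, 2, 1 and 2. In TBI+PMI vs. TBI (1 called), normexp gave 0, the unadjusted t-test and the groups alone 2 and the slide as a random block 3. In TBI+E33 vs. TBI+PMI, the unadjusted t-test gave 1 against 0. Normexp moved the median of all probes to 0.27 in TBI vs. Sham and 0.31 in TBI vs. Naïve. Probes called higher in TBI vs. Sham and TBI vs. Naïve numbered 667 and 680, and 3 and 35 with normexp, 5 and 13 in the groups alone, 10 and 77 with the slide as a fixed block. In the drug groups the share of probes called higher, 56.7%, 69.9% and 70.2%, was 9.96%, 13.9% and 10.4% under quantile normalization. Higher calls made up 52%, 51% and 51% of all calls there. The cause was not tested.

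Rats left out singly gave 2 to 5 called members in either injury comparison and in TBI+JM6 vs. TBI, 1 to 6 in TBI+E33 vs. TBI and 1 to 3 in TBI+PMI vs. TBI. Where this left 1 array in a group, it was assumed to vary like the others. The replicate number as a block gave 2 called members in TBI+PMI vs. TBI and left the other counts within 1.5 times. Same-numbered rats correlated at -0.19 to 0.18 in their deviations from the group means. Rats of different numbers were not compared in this way, so whether the numbers pair the rats was not settled.

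The following differences changed sign, in log2. Ccl2 in TBI+E33 vs. TBI was -0.51 under quantile normalization, -0.75 and -0.55 with the percentile over all probes or over those above background throughout, -0.50 in the authors' matrix, and -0.22 to 0.42 with a rat left out. Ccl7 there was 0.08 with normexp, 0.06 with the random slide block and -0.19 to 0.15 with a rat left out. Ccl20 in TBI+PMI vs. TBI was -0.22 with normexp. Ccl22 was -1.01 and -0.91 in TBI+E33 and -0.94 and -0.97 in TBI+JM6 under quantile normalization and in the authors' matrix. In TBI+PMI it was -0.51 with normexp, -1.34 under quantile normalization, -0.39 and -0.18 with the other percentiles and -1.5 in the authors' matrix, where it was called lower (adjusted p = 0.00533 from limma). Ccl3 in TBI+PMI was -0.01 and -0.15 under quantile normalization and in the matrix. Ccl4 in TBI+PMI was -0.29 with normexp, -0.80 under quantile normalization, -0.15 with the percentile over all probes, -0.72 in the matrix and -0.42 to 1.19 with a rat left out. In TBI+E33 vs. TBI+PMI, the fixed slide block gave -0.02 for Ccl4 and -0.21 for Ccl20, and quantile normalization -0.06 for Ccl20. Ccl19 was -0.68, -0.65 and -0.43 in TBI+JM6 and -0.80, -0.77 and -0.49 in TBI+E33 under quantile normalization, in the matrix and with the percentile over all probes, and 0.77 in TBI vs. Naïve with the fixed slide block. The slide as a fixed block cannot be fitted to a drug group against TBI.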
